A study of Homo sapiens with 20 samples.

Results

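The receptors described here are 8 genes through which neuroblastoma cells receive growth and survival signals: ALK, RET, NTRK2 (TrkB), NTRK3 (TrkC), NGFR (the low-affinity neurotrophin receptor) and the RET co-receptors GFRA1, GFRA2 and GFRA3. They were taken by their gene names, and all 8 were among the 27697 genes that could be tested. RNA-seq was made of poly(A) RNA of NGP, an established human neuroblastoma cell line, in 20 samples. The cells were treated with nutlin-3, as a racemic mixture at 8 µM (10 samples), or with ethanol as vehicle (10 samples); both groups are the same line grown in 6-well plasticware, the duration of treatment was not given in the sources used here, and 1 cell line says nothing of other neuroblastomas. Nutlin-3 is a small molecule that keeps MDM2 from binding p53, and the comparison asks which genes differ when that binding is blocked. The study calls the samples biological replicates. MDM2 itself, a p53 target gene, rose 22.7-fold, from 245 to 5560 CPM on average (adjusted p = 5.62e-29, edgeR), which checks the labels. CPM are gene counts relative to the TMM-scaled library size, with the total set to 1000000, and all p-values are adjusted over all genes or transcripts tested.

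ALK and RET are receptor tyrosine kinases that act in the developing sympathetic nervous system, and activating ALK mutations are known in neuroblastoma. ALK is bound by the small secreted ligands ALKAL1 and ALKAL2. RET does not bind its ligands alone: GDNF, neurturin (NRTN), artemin (ARTN) and persephin (PSPN) bind co-receptors of the GFRA family, which are anchored in the membrane and bring the ligand to RET. The Trk receptors bind the neurotrophins, NTRK2 mainly BDNF and NTF4, and NTRK3 mainly NTF3, whereas NGFR binds all neurotrophins with lower affinity and works with the Trk receptors or with sortilin (SORT1). RET and NTRK2 are made as forms that differ in their intracellular ends.

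These ends are shown first because the isoform results below turn on them. The sequences run 5′ to 3′ on the plus strand of GRCh38, from GENCODE transcripts. Lower case marks the last 30 coding bases that both forms share, and capitals mark the bases after the splice choice. For RET, capitals run to the stop codon in both forms. The long-tail form RET-202 has 1114 codons and its own part lies in a separate last exon at chr10:43128112-43128269. The short-tail form RET-201 has 1072 codons, and reads on past the splice site at chr10:43126723-43126754.
RET-202, long tail: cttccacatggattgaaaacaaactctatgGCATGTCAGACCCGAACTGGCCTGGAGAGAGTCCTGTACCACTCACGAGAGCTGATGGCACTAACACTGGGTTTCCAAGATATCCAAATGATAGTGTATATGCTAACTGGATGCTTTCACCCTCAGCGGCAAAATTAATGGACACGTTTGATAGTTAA
RET-201, short tail: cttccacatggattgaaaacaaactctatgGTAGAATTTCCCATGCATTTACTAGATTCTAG

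For NTRK2, the truncated form NTRK2-204 has 477 codons and ends 38 bases after the point where it leaves the full-length form, at chr9:84810542-84810579. The full-length form NTRK2-201 has 838 codons, including the tyrosine kinase domain. Its first 38 bases after the same point, at chr9:84861040-84861077, are shown, and its coding sequence goes on beyond them.
NTRK2-201, full length: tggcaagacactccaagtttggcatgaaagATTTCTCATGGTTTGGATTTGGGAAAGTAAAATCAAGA
NTRK2-204, truncated: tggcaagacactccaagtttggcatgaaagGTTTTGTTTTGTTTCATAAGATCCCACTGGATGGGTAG

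Nutlin-3 treatment went with higher mRNA of RET and of the 3 neurotrophin receptors, and with lower mRNA of the co-receptor GFRA2. GFRA1 and, by a small amount, ALK were also lower, but their calls depended on the settings. GFRA3 was lower on a handful of reads. NGFR rose 2.77-fold, NTRK2 2.65-fold, NTRK3 2.50-fold and RET 1.45-fold. GFRA2, the most abundant co-receptor, was 1.90-fold lower in the nutlin samples. All 8 receptors were called at 5% FDR by the edgeR quasi-likelihood test on summed estimated counts, 4 higher and 4 lower. That count has to be read against a very broad response: 58.8% of all tested genes were called, 32.3% as higher and 26.5% as lower, and 70.9% of mRNAs were called. Among the 12797 mRNAs with a mean of at least 1 CPM 81.9% were called, so being called says little about these receptors. Values of the groups did not overlap, in addition to the call, for RET, NTRK2, NGFR and GFRA2, against 52.2% of those 12797 mRNAs. The median log2 fold change (LFC) of the 8 receptors was 0.20, beside 0.189 for all tested genes and -0.149 for the mRNAs with at least 1 CPM.

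**Figure D1:**
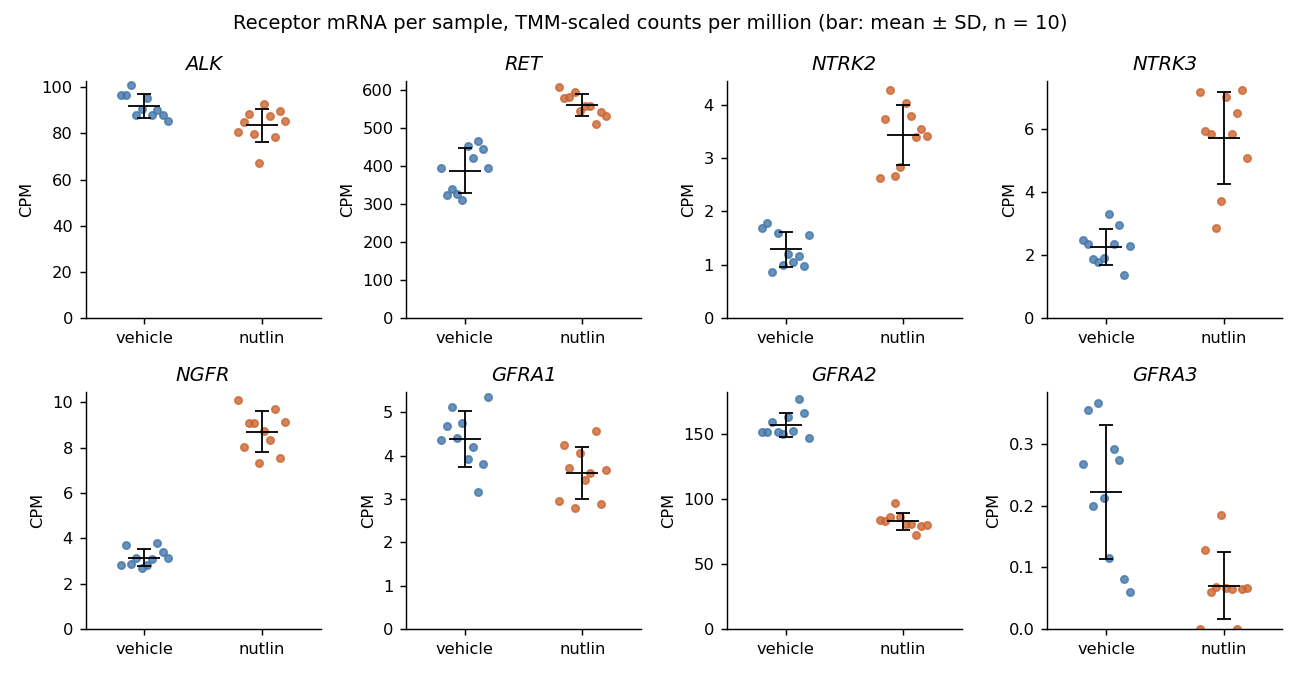
CPM (linear axes, each from 0) of the 8 receptors in each vehicle (blue) and nutlin (orange) sample; points are samples, and bars give the mean ± SD of 10 samples. RET, NTRK2, NGFR and GFRA2 show 2 separate clouds, whereas the clouds of ALK, NTRK3, GFRA1 and GFRA3 overlap.

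RET (ENSG00000165731, chr10:43077064-43130351, plus strand) was the receptor with the most counts, from 4394 to 7896 in vehicle and from 8134 to 9731 in nutlin samples. On the CPM scale, vehicle samples had a lowest value of 312, a median of 395 and a highest of 468. The nutlin samples ranged from 512 to 610 with a median of 559. Every nutlin sample was thus above every vehicle sample, and the LFC was 0.53 ± 0.064 (SE, n = 10 per group; adjusted p = 1.79e-08, edgeR). RET varied more among the vehicle samples, with a coefficient of variation of 15.2%, than among nutlin samples, with 5.33%. The widest gap within vehicle lay between replicates 4, 5, 6 and 7, at 312 to 341 CPM, and the other 6, at 395 to 468 CPM. The same split appeared on the second principal component of the vehicle samples (13.6% of their variance), where replicates 4 to 7 scored 2.03 to 13.9 and the other 6 between -8.67 and -4.1. The labels name no batch, and its part in the RET values was not tested.

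Both RET forms rose. RET-202, the long-tail form printed above, had 2906 to 5781 estimated counts in vehicle and 6113 to 7341 in nutlin samples (LFC 0.63 ± 0.078 SE, adjusted p = 1.03e-06, edgeR on transcripts). RET-201, the short-tail form, went from 1135 to 2052 counts to 1839 to 2368 counts (LFC 0.43 ± 0.068 SE, adjusted p = 3.62e-05, edgeR on transcripts). Scaled to CPM, neither form overlapped between the groups. Of the counts on these 2 forms, the long tail held 73.3% ± 1.51 (SD, n = 10) in vehicle and 76.1% ± 0.979 in nutlin samples. These shares overlapped, with 69.5 to 74.8% in vehicle and 74.1 to 77.6% in nutlin samples, and the shift was not tested. RET-203, a short transcript of 181 codons, held 5.02% of the RET TPM in vehicle and was not called (LFC 0.33, adjusted p = 0.39, edgeR on transcripts).

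GFRA2 (ENSG00000168546, chr8:21690398-21812357, minus strand), the co-receptor for neurturin, moved the other way. Its CPM ran from 147 over a median of 152 to 177 in vehicle samples. In nutlin samples it ran from 71.8 over 81.6 to 97.0. The groups were far apart relative to their spread, with an LFC of -0.92 ± 0.043 (SE, n = 10 per group; adjusted p = 8.58e-18, edgeR). Of its 8 transcripts 7 were tested; 4 fell and 3 were not called. GFRA2-201, annotated as a target of nonsense-mediated decay with a reading frame of 62 codons, held the most counts and fell by 0.93 ± 0.041 on the log2 scale (adjusted p = 4.23e-14, edgeR on transcripts). Among coding forms GFRA2-202, with 464 codons, had an LFC of -0.79, GFRA2-203 one of -0.98 and GFRA2-207 one of -0.73, with adjusted p-values of 1.38e-03, 1.32e-03 and 2.94e-04 (edgeR on transcripts). GFRA2-204 had an LFC of -1.18 that did not pass (adjusted p = 0.0535, edgeR on transcripts).

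GFRA1 (ENSG00000151892, chr10:116056925-116276803, minus strand), the preferred co-receptor of GDNF, was a low-level gene with 46 to 89 counts in vehicle and 41 to 74 in nutlin samples. Its CPM was 3.17 to 5.35 with a median of 4.38 in vehicle, and 2.80 to 4.57 with a median of 3.64 in nutlin samples. The groups overlapped, with 3 nutlin samples below the lowest vehicle sample and 1 above the vehicle median. The LFC was -0.28 ± 0.106 (SE, n = 10 per group; adjusted p = 0.0227, edgeR). The call rests on the settings: it was lost with DESeq2, with its size factors, with a length offset and in 5 further alternatives, over which the adjusted p ran up to 0.177, and without vehicle replicate 5 or 12 or nutlin replicate 1 or 4 (LFC -0.24, -0.23, -0.24 and -0.24). kallisto put the reads of GFRA1 on GFRA1-203 in some samples and on GFRA1-204, which has the same 460 codons, in others, so these 2 transcripts had counts from 0 to 89 and from 0 to 66 in vehicle samples and are uncertain.

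GFRA3 (ENSG00000146013, chr5:138252380-138274621, minus strand), the co-receptor of artemin, was at the limit of detection. Vehicle samples had 1 to 6 counts, 34 in all, and nutlin samples 0 to 3 counts, 11 in all, with 2 samples at 0. The fitted LFC was -1.56 ± 0.471 (SE, adjusted p = 3.09e-03, edgeR), a value that depends on a handful of reads, and the groups overlapped. The gene was left out by the count filter of edgeR's filterByExpr.

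The 3 neurotrophin receptors each rose from low levels. NGFR (ENSG00000064300, chr17:49495293-49515008, plus strand) had 38 to 55 counts in the vehicle and 115 to 161 in the nutlin samples. This is 2.70 to 3.78 CPM, median 3.11, against 7.34 to 10.1 CPM, median 8.90. All nutlin samples lay above all vehicle samples, and the LFC was 1.47 ± 0.082 (SE, n = 10 per group; adjusted p = 7.39e-16, edgeR). Nearly all of the signal was on NGFR-201, which encodes 427 codons and held 98.6% of the gene's TPM in vehicle and 94.6% in nutlin samples. A pair of genes on the opposite strand overlap NGFR exons: NGFR-AS1, with at most 1 count in vehicle and at most 9 in nutlin samples, and ENSG00000279036, with at most 1 and at most 12; whether the authors' counting used strand was not given in the sources used here, so their reads and those of NGFR may not be fully separated.

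NTRK3 (ENSG00000140538, chr15:87859751-88256791, minus strand) had 17 to 57 counts in vehicle and 42 to 114 in nutlin samples. Vehicle samples ran from 1.38 over 2.31 to 3.29 CPM and nutlin samples from 2.87 over 5.88 to 7.22 CPM. The overlap came from a single nutlin sample, since 9 of 10 nutlin samples were above all vehicle samples. The LFC was 1.32 ± 0.155 (SE, n = 10 per group; adjusted p = 1.16e-08, edgeR). The 2 lowest nutlin values, 2.87 and 3.70 CPM, were those of replicates 4 and 6, which also stood apart on the first principal component of the nutlin samples (scores of 20.1 and 15.7, the other 8 between -8.12 and 1.11). Without these 2 samples, an alternative chosen after seeing the data, the LFC was 1.48. With the effective length offset the LFC of NTRK3 was smaller, at 0.89 ± 0.248 (SE, adjusted p = 2.99e-03, edgeR). This was the lowest of 11 alternatives other than leaving out single samples, so the size of the rise depends on how length is handled. The full-length form NTRK3-203, with 825 codons and a tyrosine kinase domain, held most counts (12.8 to 47.3 against 37.1 to 95.6) and rose by an LFC of 1.5 ± 0.186 SE (adjusted p = 1.13e-06, edgeR on transcripts).

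NTRK2 (ENSG00000148053, chr9:84668375-85095751, plus strand) had 12 to 26 counts in vehicle and 39 to 71 in nutlin samples. On the CPM scale the vehicle samples were at 0.864 to 1.78, median 1.19, and the nutlin samples at 2.63 to 4.27, median 3.48. The groups did not overlap, and the LFC was 1.41 ± 0.14 (SE, n = 10 per group; adjusted p = 3.89e-10, edgeR). Only 7 of the 58 NTRK2 transcripts of GENCODE release 44 are in the authors' index, so reads of the other transcripts could be assigned only where they match one of these 7.

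Of the NTRK2 transcripts 6 were tested, 2 rose and 4 were not called. The full-length form NTRK2-201 had 0 to 7.13 estimated counts in vehicle and 5.95 to 26.5 in nutlin samples, with an LFC of 2.56 ± 0.496 (SE, adjusted p = 3.10e-04, edgeR on transcripts). For the truncated form NTRK2-204, which lacks the kinase domain, the counts were 0 to 16.2 in vehicle and 0 to 24.7 in nutlin samples, and the LFC of 0.49 ± 0.601 did not pass (adjusted p = 0.643, edgeR on transcripts). Another form without the kinase domain, NTRK2-205 with 537 codons, had at most 4 counts in vehicle and was called higher by a narrow margin (LFC 2.38 ± 0.958 SE, adjusted p = 0.0495, edgeR on transcripts), and the full-length form NTRK2-206 was not called (LFC 1.98 ± 0.774 SE, adjusted p = 0.0612, edgeR on transcripts). Because single transcripts share most of their sequence, they were also summed by coding length, a grouping chosen after the values were seen and not tested. The 3 forms with 810 to 838 codons summed to 2.77 to 10.9 counts in vehicle, median 4.67, and to 14.9 to 40.5 in nutlin samples, median 31.3. The 4 forms with 477 to 537 codons summed to 6.72 to 23.2 counts, median 13.7, and to 17.9 to 32.4 counts, median 24.5. In CPM the full-length class was 4.97-fold higher on average in nutlin samples with no overlap, and the truncated class 1.76-fold higher with overlap. Full-length forms made up 28.3% ± 10.9 (SD, n = 10) of NTRK2 counts in vehicle and 51.4% ± 10.2 in nutlin samples, with overlapping ranges of 10.7 to 44% and 35.5 to 65.5%. Whether the LFC of the 2 forms differ was not tested.

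**Figure D2:**
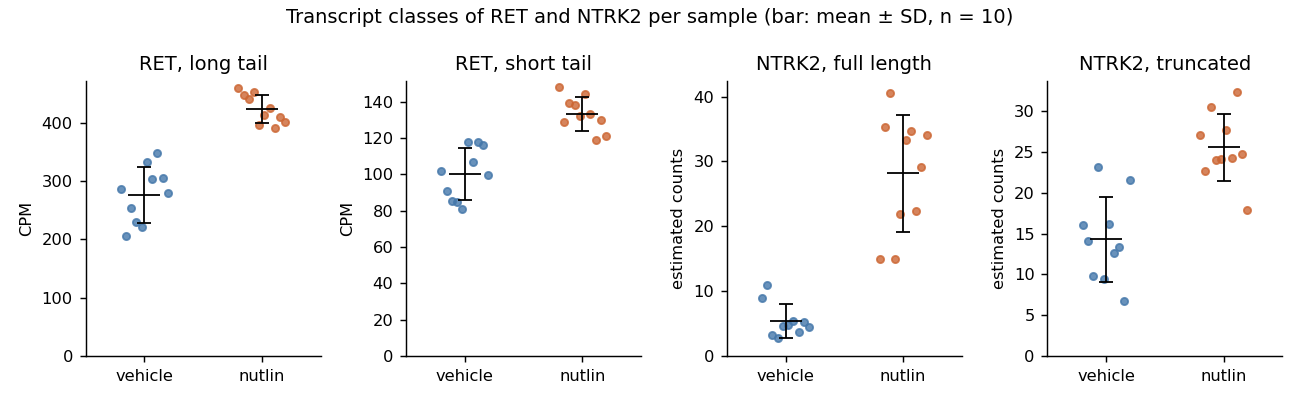
CPM of the long-tail and short-tail forms of RET, and estimated counts of the full-length and truncated classes of NTRK2, in each vehicle (blue) and nutlin (orange) sample on linear axes from 0; bars give the mean ± SD of 10 samples. Both RET forms are separate between the groups, whereas for NTRK2 the full-length class separates and the truncated class overlaps.

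ALK (ENSG00000171094, chr2:29192774-29921586, minus strand) changed least. Vehicle samples had 85.4 to 101 CPM with a median of 90.3, and nutlin samples 67.3 to 92.8 CPM with a median of 85.1. The groups overlapped, with 6 nutlin samples below all vehicle samples and 1 above the vehicle median. The LFC was -0.14 ± 0.045 (SE, n = 10 per group; adjusted p = 8.99e-03, edgeR), close to the -0.149 that was the median of the mRNAs with at least 1 CPM. The call was lost with DESeq2 (adjusted p = 0.0978), with its size factors in edgeR (0.0902) and when only protein-coding transcripts were summed (LFC -0.04, adjusted p = 0.468); over 11 alternatives other than leaving out single samples, the adjusted p was 5.94e-04 to 0.468 and the LFC -0.23 (effective length offset) to -0.04. Without nutlin replicate 6, the sample with the lowest ALK value, the LFC was -0.09 and still passed. By transcript, ALK-201, the full-length form of 1620 codons, had 793 to 1302 counts in vehicle and 874 to 1233 in nutlin samples, with an LFC of 0.02 ± 0.062 (SE, adjusted p = 0.868, edgeR on transcripts). The transcript that fell was ALK-202, annotated as a target of nonsense-mediated decay, from 139 to 218 counts down to 80 to 161 (LFC -0.58 ± 0.131 SE, adjusted p = 1.73e-03, edgeR on transcripts). Counts of ALK-205 were between 0 and 262 within the vehicle group, so its split from ALK-201 is unstable.

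In all, the 8 receptors have 51 transcripts in the files, of which 39 were tested, 6 rose and 5 fell. This is 28.2% of those tested, beside 23.3% of all tested transcripts.

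Levels can be compared between genes only per length, and TPM (transcript abundance per length as a part of the library, summed over a gene's transcripts) was used for this. The order in vehicle samples was RET (85.5 ± 14.6 TPM, SD, n = 10), GFRA2 (76.0 ± 5.19), ALK (20.7 ± 1.79), NGFR (1.01 ± 0.0928), GFRA1 (0.698 ± 0.199), NTRK3 (0.565 ± 0.297), NTRK2 (0.206 ± 0.0624) and GFRA3 (0.133 ± 0.065). GFRA2 and ALK, and ALK and NGFR, were separate over their 10 samples, while all other neighbours in this order overlapped. In nutlin samples RET was at 119 ± 10.3 TPM, GFRA2 at 39.6 ± 4.11, ALK at 17.7 ± 2.39, NGFR at 2.88 ± 0.39, NTRK3 at 0.979 ± 0.366, GFRA1 at 0.582 ± 0.169, NTRK2 at 0.515 ± 0.0895 and GFRA3 at 0.0411 ± 0.0296. Here NTRK3 stood above GFRA1, and only the neighbour pairs NTRK3 and GFRA1, and GFRA1 and NTRK2, overlapped. RET and GFRA2 therefore had similar levels in vehicle, with 0.903 to 1.30 TPM of RET per TPM of GFRA2, and distinct ones in nutlin samples, with 2.75 to 3.59. Summed over protein-coding transcripts only, GFRA2 was lower, at 43.8 TPM in vehicle and 23.2 in nutlin samples, and the ratio was 1.48 to 2.31 and 4.48 to 6.86. On the same sum NTRK3 was at 0.368 TPM in vehicle and at 0.59 TPM in nutlin samples, beside 0.582 TPM of GFRA1, and ALK was at 14.8 and 13.8 TPM. The place of NTRK3 above GFRA1 in nutlin samples depends on few reads. Its 9 transcripts with 0 to 145 codons averaged 1.36 counts in vehicle and 2.27 in nutlin samples. They held 0.316 and 0.436 TPM. Its 5 transcripts with 817 to 864 codons averaged 24.6 and 71.0 counts but held only 0.0914 and 0.278 TPM. The protein-coding sum still includes NTRK3-213, with 85 codons, at 0.116 and 0.0439 TPM from mean counts of 0.204 and 0.073.

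**Figure D3:**
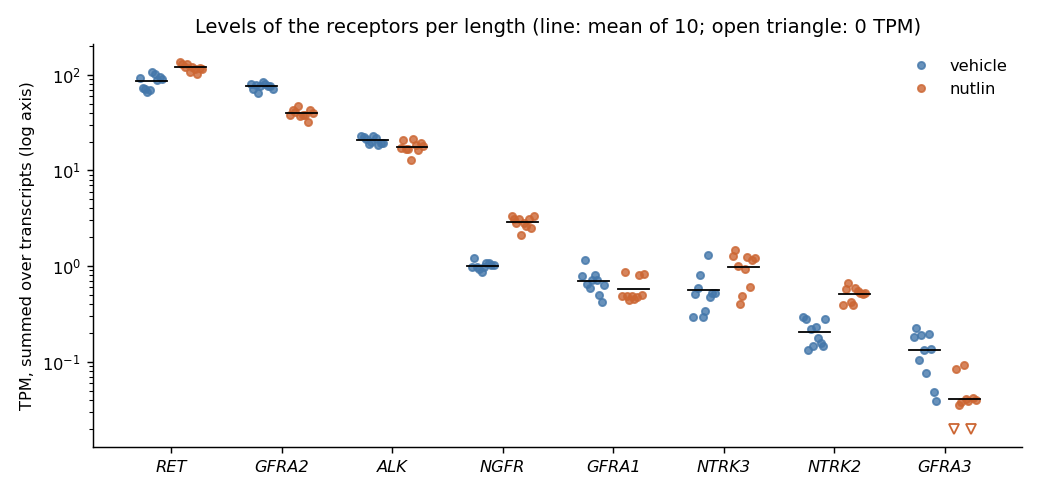
TPM of each receptor, summed over its transcripts, on a log axis in vehicle (blue) and nutlin (orange) samples; points are samples, lines the means of 10 samples and open triangles samples at 0 TPM. RET and GFRA2 lie side by side in vehicle samples and apart in nutlin samples, and the 5 lowest genes stay below 4 TPM.

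Most ligands of these receptors had low counts. Of 12 ligand genes 9 were tested, 5 rose, none fell and 4 were not called, with a median LFC of 0.78 beside 0.189 for all genes. That share is near the 58.8% of all genes that were called. GDNF, which signals through GFRA1 and RET, had 2.56 to 4.82 CPM in vehicle, median 3.23, and 22.1 to 27.6 CPM in nutlin samples, median 24.1 (LFC 2.84 ± 0.085 SE, adjusted p = 1.85e-22, edgeR). All 10 nutlin samples were above all vehicle samples. BDNF, the ligand of NTRK2, went from 13.2 to 19.6 CPM to 24.9 to 29.9 CPM (LFC 0.72 ± 0.059 SE, adjusted p = 7.41e-12, edgeR).

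The artemin gene ARTN had 4 to 12 counts in vehicle and 16 to 35 in nutlin samples, an LFC of 1.69 ± 0.170 SE (adjusted p = 4.56e-10, edgeR). Pleiotrophin (PTN), a heparin-binding growth factor that has been described as an ALK ligand, had 11 to 22 and 35 to 58 counts (LFC 1.30 ± 0.134 SE, adjusted p = 8.15e-10, edgeR). None of these ligands overlapped between the groups, beside 52.2% of mRNAs with at least 1 CPM that were called without overlap. The related midkine (MDK) had the most counts of the list, with 167 CPM in vehicle and 177 CPM in nutlin samples on average, and was not called (LFC 0.08, adjusted p = 0.102, edgeR), although 13 of 31 alternatives called it. PSPN (LFC -0.14), NRTN (0.78) and ALKAL2 (0.27) were not called either, the latter 2 with at most 9 counts in any sample. ALKAL1, NTF3 and NTF4 had no count in any vehicle sample and were not tested. NTF4 nevertheless had 3 to 16 counts in all nutlin samples, 80 in all, which is at least 29.7-fold higher when the vehicle group is set to 3 counts over its 10 libraries, as the upper limit that a count of 0 allows for counting error only. NTF4 lies within a longer gene on the same strand, so its reads are uncertain.

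**Figure D4:**
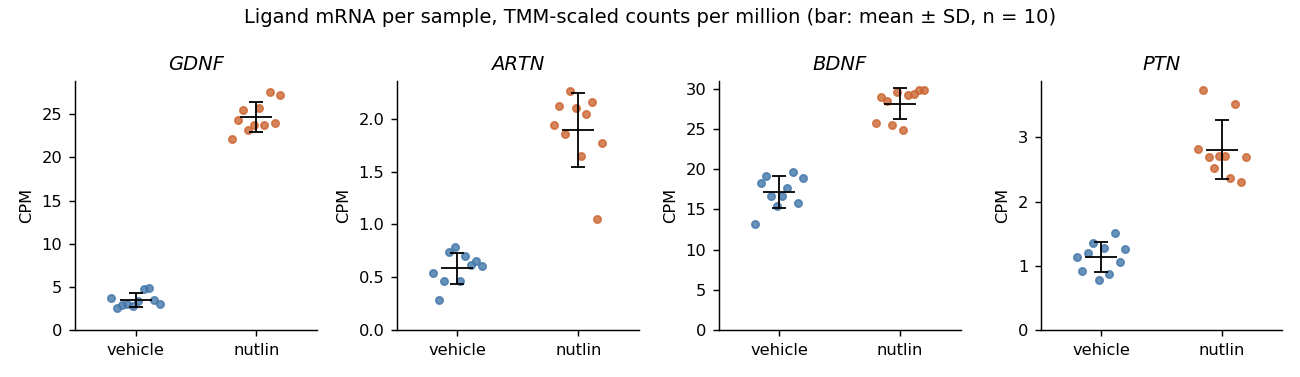
CPM (linear axes from 0) of GDNF, ARTN, BDNF and PTN in each vehicle (blue) and nutlin (orange) sample, with the mean ± SD of 10 samples. Each of them is higher in all 10 nutlin samples than in any vehicle sample. Of mRNAs with at least 1 CPM, 52.2% were called in either direction without overlap.

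Of 9 other receptor genes, for the same ligands or related to these receptors, 8 were tested, 4 rose, 1 fell and 3 were not called (median LFC 0.22). That share is near the 58.8% of all genes called. LTK, the closest relative of ALK, rose from 10.4 to 21.1 CPM on average (LFC 1.02, adjusted p = 5.24e-14, edgeR). SORCS2, a sortilin-type receptor that pairs with NGFR, rose from 21.8 to 72.6 CPM (LFC 1.74, adjusted p = 3.44e-22, edgeR), and SORT1, the founding member of that family, fell from 51.8 to 17.3 CPM (LFC -1.58, adjusted p = 6.09e-21, edgeR). SDC3, a syndecan, rose slightly (LFC 0.22, adjusted p = 5.26e-06, edgeR). NCAM1 (LFC -0.10), PTPRZ1 (0.05) and GFRAL (0.22, at most 3 counts in any sample) were not called. With the effective length offset NCAM1 (LFC 0.27, adjusted p = 1.98e-06, edgeR) and PTPRZ1 (0.33, adjusted p = 0.0152, edgeR) were called higher; over 11 such alternatives the adjusted p of NCAM1 reached 0.69 and that of PTPRZ1 0.621. Without nutlin replicate 3 NCAM1 was called lower (LFC -0.11, adjusted p = 0.0366, edgeR). GFRA4 was not tested, with 1 count in all.

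Partners of NGFR were tested for 9 of 10 listed genes, of which 2 rose, 5 fell and 2 were not called, with a median LFC of -0.51. All 9 had at least 1 CPM, and of all mRNAs at that level 81.9% were called. LINGO1, a membrane protein of the NGFR and RTN4R complex, rose from 3.25 to 30.1 CPM (LFC 3.20, adjusted p = 7.14e-25, edgeR), and the zinc finger gene ZNF274 from 18.3 to 25.1 CPM (LFC 0.45, adjusted p = 8.60e-09, edgeR). Besides SORT1, the NGFR interactors BEX3 (median 186 CPM in vehicle and 78.6 CPM in nutlin samples, LFC -1.19) and MAGED1 (medians of 184 and 98.9 CPM, LFC -0.89) fell, as did ARHGDIA (LFC -0.76), a regulator of small GTPases, and RTN4R (LFC -0.51).

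Of 28 adaptor and proximal signalling genes tested, 11 rose, 13 fell and 4 were not called, near the 81.9% called among mRNAs with at least 1 CPM, and the median LFC was -0.08. SHC2 (LFC 1.58), GRB10 (1.29) and SH2B3 (1.27) rose most by the rule used to name genes, and GAB1 (-1.10), IRS1 (-1.0) and SHC3 (-0.73) fell most. SHC2 had an LFC of 1.04 with the effective length offset and 2.44 over protein-coding transcripts only. All of them are docking or adaptor proteins of tyrosine kinase signalling. Among ubiquitin ligases and phosphatases that act on such receptors 3 of 9 rose, 4 fell and 2 were not called (median LFC -0.09), again near the share of 81.9%. CBLB (LFC 1.35) and NEDD4 (0.83) were higher, whereas NEDD4L (-1.11), CBL (-0.46) and PTPN1 (-0.29) were lower in nutlin samples, NEDD4L with an LFC of -0.66 under the effective length offset.

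Of 10 genes commonly used as a transcriptional readout of RAS-ERK signalling 9 rose and 1 fell, where 32.3% of all genes were called higher and 81.9% of mRNAs with at least 1 CPM were called in either direction. The median LFC of the list was 0.92, beside 0.189 for all genes and -0.149 for mRNAs with at least 1 CPM. All 10 genes of the list reached that level. The ephrin receptor gene EPHA2 rose from 0.874 to 87.0 CPM (LFC 6.61, adjusted p = 1.89e-30, edgeR), the ERK phosphatase gene DUSP6 from 15.2 to 67.0 CPM (LFC 2.13, adjusted p = 4.86e-18, edgeR) and EPHA4 from 6.60 to 27.1 CPM (LFC 2.04, adjusted p = 8.77e-18, edgeR). The transcription factor gene ETV4 was the exception (LFC -0.19, adjusted p = 1.44e-04, edgeR). What lies behind these changes was not tested.

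**Figure D5:**
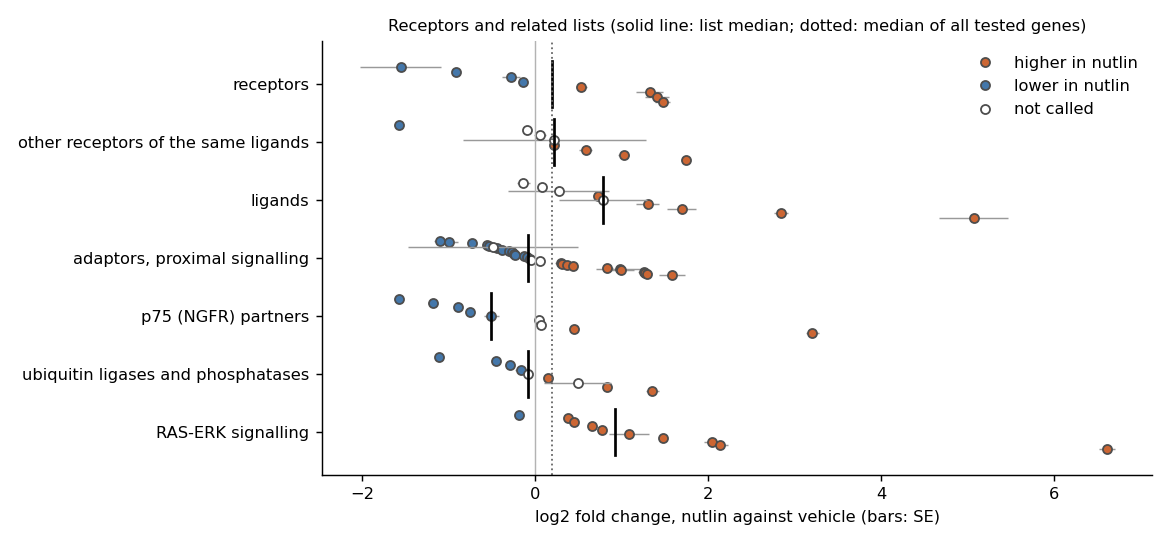
LFC of nutlin against vehicle (bars: SE) for the tested genes of each list; orange points were called higher, blue points lower and open points were not called, solid lines are list medians and the dotted line is the median of all tested genes (0.189). The ligand and RAS-ERK lists have their medians to the right of that line, at 0.78 and 0.92.

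Defining genes of sympathetic noradrenergic neuroblastoma were all expressed, as the label of the line would have it. The 10 markers summed to 4990 to 5810 CPM in vehicle and 5590 to 7050 CPM in nutlin samples; 4 rose, 5 fell and 1 was not called. Schwann or glial markers, which could bring NGFR with them, summed to 1.63 to 3.37 CPM in vehicle and 3.39 to 4.76 CPM in nutlin samples: of 6 tested, 2 rose (ERBB3, FOXD3), 1 fell and 3 were not called, and SOX10 had 1 count in all 20 samples. Of 7 mesenchymal-type markers 4 rose, 2 fell and 1 was not called. Their median LFC was 1.69, beside 0.189 for all tested genes and -0.149 for mRNAs with at least 1 CPM. The fallen genes were VIM (1040 to 705 CPM on average) and FN1, and the risen ones FOSL1 (LFC 5.08), YAP1 (4.73), PRRX1 (1.97) and CD44 (1.69), all of which had under 2 CPM in vehicle. The summed level, 1030 to 1160 CPM in vehicle and 654 to 845 CPM in nutlin samples, is nearly all VIM. Calls in all these marker lists have to be read against the 58.8% of all tested genes that were called. Among mRNAs with at least 1 CPM that share was 81.9%, so the number of markers called says little. In bulk samples such as these, a change in the number of cells of a type and a change in RNA per cell cannot be told apart. The total of estimated counts was 14455477 to 19532971 read pairs in vehicle and 15078052 to 17442896 in nutlin samples.

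Among samples of the same condition, each receptor with at least 1 CPM was compared with all 15168 genes at that level by the Pearson correlation of deviations from the condition mean of log2(CPM + 1), over 20 samples. These correlations are descriptions, as the points share libraries and depth. The genes named were picked as the highest of 15168, so a high r comes partly from the picking, and no chance level was computed. RET was most like MDGA1 (r = 0.93) and TNS1 (0.88), GFRA2 like MELTF (0.90) and IQSEC1 (0.89), and ALK like SPTBN1 (0.82) and MDC1 (0.82). NTRK3 was most like GCLM (0.89) and FMN1 (0.87), NTRK2 like PTCHD4 (0.84) and MYCNUT (0.79), NGFR like ZNF556 (0.80) and DLL1 (0.75), and GFRA1 like ENSG00000255310 (0.76) and PNISR-AS1 (0.73). For these pairs r over all samples without centring ran from -0.95 (GFRA2 and MELTF) to 0.98 (NTRK2 and PTCHD4). Likeness within a condition thus did not always hold across treatment. Within the receptors the nearest pair was RET and GFRA2 (r = 0.57). Over all samples without centring this pair had r = -0.79, since RET rose and GFRA2 fell with treatment.

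Promoters of RET and NTRK3, which are among the receptors that rose, are shown. They are RefSeq windows of GRCh38.p14 from 250 bases before to 50 after the first listed start, 5′ to 3′ on the gene's strand, with GC boxes (GGGCGG on either strand, overlaps counted) in capitals.
RET promoter, chr10:43076819-43077118, plus strand: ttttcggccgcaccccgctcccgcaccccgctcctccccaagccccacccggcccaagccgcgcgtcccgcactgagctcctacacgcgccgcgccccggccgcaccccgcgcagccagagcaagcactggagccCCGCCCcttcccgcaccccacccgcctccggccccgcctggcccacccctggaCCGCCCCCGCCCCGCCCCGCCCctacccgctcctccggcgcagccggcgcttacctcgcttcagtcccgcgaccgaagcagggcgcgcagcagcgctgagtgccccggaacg
NTRK3 promoter, chr15:88256690-88256989, minus strand: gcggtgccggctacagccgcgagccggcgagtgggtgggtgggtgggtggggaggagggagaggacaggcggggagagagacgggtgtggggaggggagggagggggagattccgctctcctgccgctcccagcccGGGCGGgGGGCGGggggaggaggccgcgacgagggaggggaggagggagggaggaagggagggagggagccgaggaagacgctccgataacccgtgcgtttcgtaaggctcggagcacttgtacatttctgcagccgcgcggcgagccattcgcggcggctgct
The RET window has 5 GC boxes and the NTRK3 window 2, and 45.0% of all 35116 windows hold at least 1. A window of ALK, which did not rise, also has 5, and the windows of NTRK2, which rose, have at most 1 each. Whether GC boxes go with the changes was not tested. Of 14 windows that belong to 6 of the receptors, 8 hold a GC box. The E-box CACGTG is in 1 of them, an internal ALK start at chr2:29223774-29224073, and in 7.26% of all windows. The p53 half-site is in 0 of the 14 windows and in 6.63% of all windows. No match says only that these letters are not in the windows searched. NGFR and GFRA2 had no window, so their promoters were not searched.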

How the data were processed

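NGP cells were measured by stranded poly(A) RNA-seq (2 × 75 bases) in 20 samples. The authors quantified the reads with kallisto 0.42.4 on an Ensembl index of hg38 (GRCh38), with no alignment to the genome. The deposited estimated counts are read pairs per transcript, without normalization. The deposited TPM values were scaled by the authors' kallisto runs for effective length and library size. The effective lengths were used in 1 alternative only.

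Transcripts were matched to genes by identifier in GENCODE release 44; of 198968, 191106 (96.05%) matched, 96.66 to 96.78% of the counts of vehicle samples and 95.71 to 95.95% of nutlin samples. Counts were summed per gene and rounded. mRNA and lncRNA genes reaching 1 count or more in both conditions entered the edgeR 4.0.16 quasi-likelihood test in R 4.3.3 (TMM, condition only, Benjamini-Hochberg adjustment over all genes, 5% FDR), and transcripts likewise. On simulated counts with 10 samples per group 98% of 2-fold and 83% of 1.5-fold changes were recovered. In the simulation 100 genes per fold changed, balanced in direction and all with at least 1 CPM in vehicle samples. It therefore does not test the scaling under a broad response, or genes below 1 CPM such as GFRA3.

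The receptors and the gene lists were chosen with earlier results of these data known. Named genes are the receptors, ligands and other receptors, and from each further list up to 3 in each direction with the largest LFC among those called, with at least 1 CPM and no overlap between groups. ARHGDIA, RTN4R and ETV4 were named outside this rule, to complete the fallen genes of their lists. The groups overlapped for RTN4R and ETV4. A transcript was described where it held at least 5% of its gene's TPM and 10 counts. NTRK2-205 and NTRK2-206 had fewer counts and were described outside this rule. Alternatives were DESeq2 1.42.0, limma 3.58.1, other scalings, filters and sums, and leaving out each sample. Replicate numbers shared by 8 samples of each condition did not pair them: the mean correlation of deviations was 0.00348, and 0 of 8 pairs were above 0.1. Intervals and limits from counts cover counting error only. Some members of the lists are counted but not reported here by name.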

Additional observations from a re-analysis of the deposited data

Results flagged for a closer look

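Single samples stood apart from the other 9 of their group for 5 of 50 combinations of gene and condition that were checked among receptors and ligands. Chance flags about 1 in 20 such groups. LTK was at 13.4 CPM in vehicle replicate 7, with the next sample at 11.4 CPM. SORCS2 was at 90.3 CPM in nutlin replicate 4, followed by 77.0 CPM. ARTN was at 1.05 CPM in nutlin replicate 10, where the next lowest sample had 1.65 CPM. ALKAL2 was at 0.397 CPM in nutlin replicate 7 and GFRAL at 0.206 CPM in vehicle replicate 10, both from a few counts. None of the 8 receptors was among them.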

How the results depend on the processing

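The directions of the 8 receptors were kept under all 31 alternatives that gave a value. RET, NTRK2, NTRK3, NGFR and GFRA2 passed in every one, and GFRA3 in all but filterByExpr, which left it out. ALK no longer passed with DESeq2 size factors or DESeq2 (LFC -0.09 in both), filterByExpr (-0.06), protein-coding transcripts only (-0.04), the 16 samples with shared numbers (-0.12), or without nutlin replicates 4 and 6 (-0.08, an alternative chosen after seeing the data). GFRA1 no longer passed with DESeq2 size factors, DESeq2 or protein-coding transcripts only (LFC -0.24 in each), filterByExpr (-0.21), an effective length offset (-0.26), without nutlin replicates 4 and 6 (-0.26) or in the 16 samples with or without the replicate block (-0.20 in both). Leaving out single samples gave GFRA1 an LFC between -0.32 and -0.23. The number of receptors called was 8, and 5 with filterByExpr, which also tested fewer genes. It was 6 with DESeq2 and 7 at 1% FDR. With the replicate block 7 receptors were called, against 6 for the same 16 samples without it, and ALK had an LFC of -0.12 (adjusted p = 0.0406, edgeR); no vehicle sample correlated best with its own number. Beyond the receptors, NCAM1 turned to 0.27 with the length offset, where it was called, GFRAL to -0.09 without nutlin replicates 4 and 6 and to between -0.21 and 1.4 when single samples were left out (lowest without nutlin replicate 6), and ALKAL2 to -0.08 with protein-coding transcripts only and to between -0.07 and 0.62 when single samples were left out (lowest without nutlin replicate 7); the cause was not tested. MDK passed in 7 of 11 alternatives and in 6 of 20 that left out a sample. Over the genes shared with each of the 11 alternatives other than leaving out single samples, LFC shifted by a median of at most 0.077 (filterByExpr, 16338 genes). Counts limit GFRA3, GFRAL, ALKAL2 and NRTN, which had under 10 counts in any sample.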
